A study of Mus musculus with 12 samples.

Results

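The genes described here are 10 genes of calcium handling in the heart muscle cell: Atp2a2, Pln, Ryr2, Casq2, Hrc, Trdn, Asph, Jph2, Cacna1c and Slc8a1. Every probe set (the group of array probes that reads 1 transcript) whose annotated gene symbol is one of these names was taken, whatever its values. This gave 33 of the 45101 probe sets on the array, for 10 of the 18193 genes that have a probe set with 1 symbol. Of the 33, 31 were bright enough to be tested, and all 10 genes had at least 1 tested probe set. The remaining pair, 1 probe set of Asph (1436455_at) and 1 of Slc8a1 (1440201_at), lay below the level at which the dimmer probe sets of the array were set aside and are given by their values alone. Averages over all probe sets of a gene, where given, include them.

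The samples were left ventricles from 12 male C57BL/6 mice, 1 heart per Affymetrix mouse 430 2.0 array, in 4 groups of 3. The mice were transgenic for ATF6-MER (TG) or were non-transgenic littermates (NTG), and each genotype was given tamoxifen or vehicle. In ATF6-MER the stress transcription factor ATF6 is joined to a mutated estrogen receptor domain that tamoxifen activates. What promoter drives the transgene, and how much tamoxifen was given for how long, the sources used here do not state, and the vehicle-treated TG mice carry the transgene too. All mice are labelled as about 30 weeks old except TG tamoxifen 1, which is labelled 40 weeks, and all values are from whole ventricle and so from all its cell types.

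In a heart muscle cell each beat starts with calcium entering through the L-type channel (Cacna1c is its pore) at the dyad, where junctophilin (Jph2) holds the cell membrane against the sarcoplasmic reticulum. That calcium opens the release channel Ryr2, which sits in a complex with triadin (Trdn), junctin (a product of the Asph locus) and the storage protein calsequestrin (Casq2). Hrc is a histidine-rich calcium-binding protein in the lumen of the store. The muscle then relaxes as the pump SERCA2 (Atp2a2), held in check by phospholamban (Pln), returns calcium to the store and the sodium-calcium exchanger (Slc8a1) carries it out of the cell. The sarcoplasmic reticulum is a form of the endoplasmic reticulum, the compartment whose stress response ATF6 serves.

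Labels and values went apart at several places. TG vehicle 3 is a vehicle mouse by its title and a tamoxifen mouse by its treatment label, and titles were followed here. Esr1, whose probes can read the receptor part of the transgene, stood at log2 16.67 to 17.16 on TG tamoxifen arrays and 17.90 to 18.26 on TG vehicle arrays, and at 7.16 to 8.71 on NTG vehicle arrays. The array labelled NTG tamoxifen 1 read 17.72 for Esr1, where the other 2 NTG tamoxifen arrays read 10.88 and 9.89. It also read 18.06 for Hspa5, the chaperone BiP and a main ATF6 target, against 15.65 and 15.49 on the other 2. This array therefore goes against its label, and the counts of called calcium genes over all arrays that draw on it are also given without it. Counts by probe set and of cell type markers are given with it only. On it 9 of the 10 calcium handling genes lay below both other NTG tamoxifen arrays and 1, Slc8a1, lay above both. The share of all genes tested that lay so was not counted. Its distance from the mean of the other 2 arrays was -0.01 for Atp2a2 and -0.07 for Pln, and at most -1.14 (Asph). Its readings of Atp2a2, Ryr2, Casq2 and Cacna1c fell inside the range of the 3 TG tamoxifen arrays. The 3' to 5' ratio of the beta-actin control probes, a measure of RNA integrity, was 1.75 to 1.88 on TG tamoxifen arrays, 1.32 to 1.68 on TG vehicle, 1.78 to 1.97 on NTG tamoxifen and 2.12 to 2.43 on NTG vehicle arrays.

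RefSeq promoter windows (build GRCm38.p6) were at hand for 7 of the 10 genes, in 10 windows, and none for Atp2a2, Trdn and Asph. The sequences below are the 250 bases before the annotated start of the 3 genes that were lower in TG tamoxifen than in TG vehicle by the array values that follow, shown because these carry the result and ATF6 is known to act through a CCAAT box followed by CCACG. The full ER stress element, CCAAT and CCACG with 9 bases between them, was in 0 of the 10 windows and in 0.113% of 32851 such windows in the RefSeq table. Its variant, ATTGG and CCACG with 1 base between them, and the core TGACGTGG were in 0 of the 10 either (0.0304% and 0.563% of all windows). Both strands were searched. Capitals mark CCAAT or CCACG on either strand (ATTGG and CGTGG on the printed strand), which were in 33.8% and 28.3% of all windows, and each sequence runs 5′ to 3′ along its gene. The Hrc window is chr7:45335019-45335268 on the plus strand, the Jph2 window chr2:163397974-163398223 on the minus strand and the Cacna1c window chr6:118757975-118758224 on the minus strand. The Cacna1c window precedes 1 of 3 annotated starts, lies inside the longest form of the gene and was picked because it alone of the 3 holds a match.
Hrc: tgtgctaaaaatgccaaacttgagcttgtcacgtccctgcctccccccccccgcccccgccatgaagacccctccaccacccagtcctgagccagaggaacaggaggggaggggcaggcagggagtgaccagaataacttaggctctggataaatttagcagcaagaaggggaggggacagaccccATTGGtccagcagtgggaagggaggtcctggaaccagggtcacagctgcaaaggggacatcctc
Jph2: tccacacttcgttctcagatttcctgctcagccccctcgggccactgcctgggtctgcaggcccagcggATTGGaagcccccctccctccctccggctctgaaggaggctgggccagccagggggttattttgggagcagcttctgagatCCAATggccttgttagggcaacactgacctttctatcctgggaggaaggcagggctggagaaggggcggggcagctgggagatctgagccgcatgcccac
Cacna1c: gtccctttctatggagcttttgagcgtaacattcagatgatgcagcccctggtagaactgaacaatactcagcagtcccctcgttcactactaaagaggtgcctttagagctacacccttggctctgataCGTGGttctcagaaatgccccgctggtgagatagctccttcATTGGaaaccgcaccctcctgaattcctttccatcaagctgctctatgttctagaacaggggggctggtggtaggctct
The Hrc window holds 1 CCAAT match and no CCACG, the Jph2 window 2 CCAAT matches and no CCACG, and the Cacna1c window 1 of each. Matches this short are a description of these letters and say nothing of binding.

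Values are log2 of the quantile-normalized intensity plus 16. A gene is read from its brightest probe set unless another is named. Changes are differences of group means on that scale, with the standard error (SE) of a limma fit over all 12 arrays, and a change was called when its Benjamini-Hochberg adjusted p over 22518 probe sets was below 0.05. Levels of different probe sets depend on their probes and are not compared with each other.

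In TG mice given tamoxifen (TG tamoxifen against TG vehicle), Hrc, Jph2 and the L-type channel Cacna1c fell, by 2.23-fold, 1.67-fold and 1.80-fold. By these probe sets the tamoxifen effect differed between genotypes for Hrc and was not called different for Jph2 or Cacna1c, as given below. None of the 10 genes rose by its brightest probe set, though with the probe sets of a gene averaged Slc8a1 was higher, by 0.88 (limma adjusted p = 0.0419). That average takes in the untested dim set 1440201_at (means of 9.64 on TG tamoxifen and 7.65 on TG vehicle arrays). It exceeds the change of every tested Slc8a1 set. The release channel Ryr2 and its partners Casq2, Asph and Trdn gave changes of a similar size, -0.77 to -0.91, that missed the threshold, and Atp2a2, Pln and Slc8a1 lay between -0.20 and 0.26. Thus 3 of 10 genes were lower and 0 higher, where 12.4% of the 11165 genes tested were lower and 8.76% higher (21.2% in either direction). The median change of the 10 genes was -0.81, and that of all genes tested was -0.07. In 7 genes every TG tamoxifen array lay below every TG vehicle array and in 2 every one lay above, against 24.4% and 19.8% of all genes tested. Whether fewer heart muscle cells or less RNA per cell gave these values cannot be told apart in whole tissue.

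**Figure D1:**
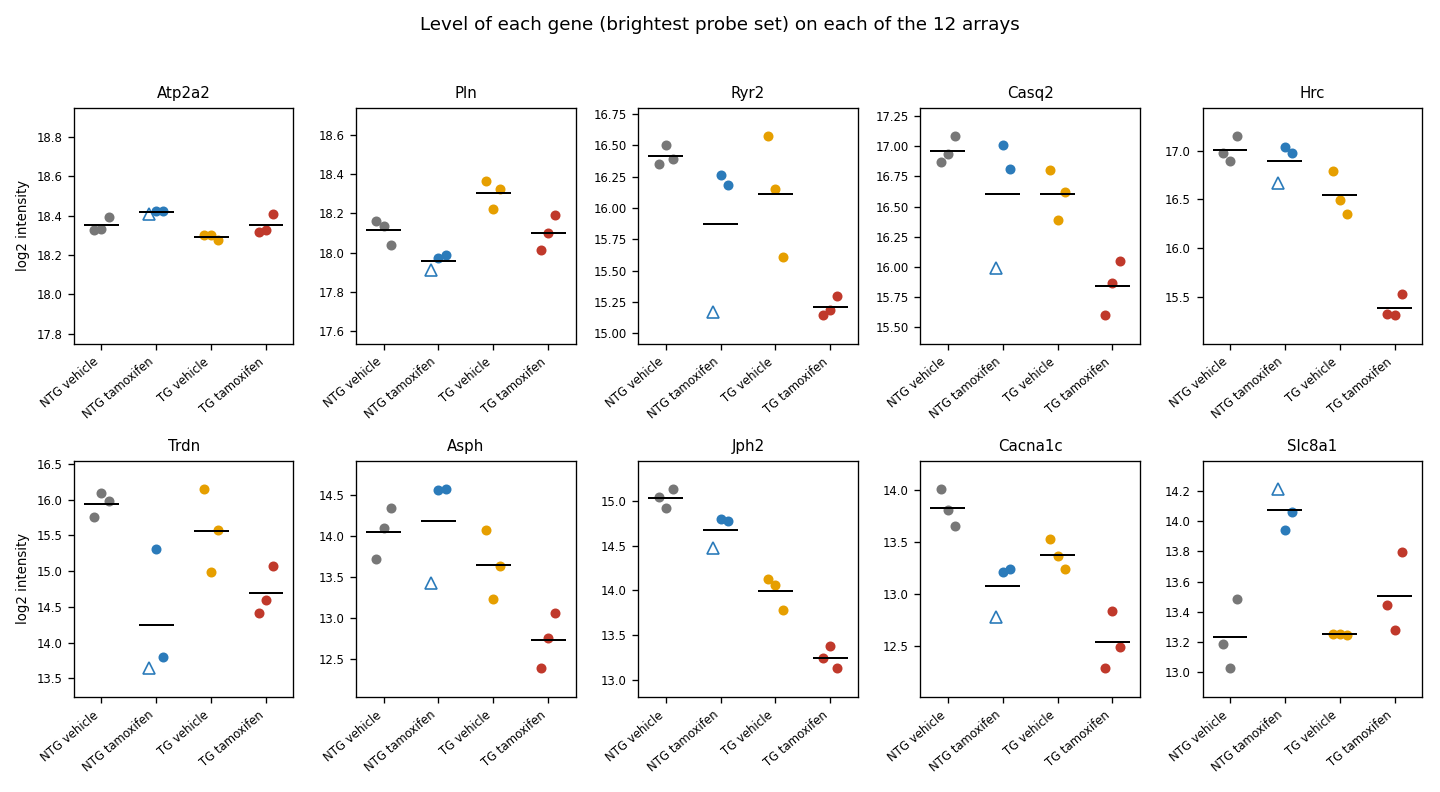
Log2 intensity (vertical axis) of the brightest probe set of each of the 10 genes on each array, by group (horizontal axis); points are arrays, bars are group means, and the open triangle is the array labelled NTG tamoxifen 1. Each vertical axis has its own range and does not start at 0. The 3 TG tamoxifen arrays of Hrc, at 15.31 to 15.53, lie below all 9 other arrays, whose lowest value is 16.35.

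Hrc gave the largest change of the 10. It read 15.32, 15.31 and 15.53 on the TG tamoxifen arrays, 16.79, 16.49 and 16.35 on TG vehicle, 16.67, 17.03 and 16.98 on NTG tamoxifen and 16.98, 16.90 and 17.15 on NTG vehicle arrays. The 3 TG tamoxifen arrays were the lowest of the 12 and did not overlap with any other group. The change against TG vehicle was -1.16 ± 0.18 (SE, 3 arrays a group; limma adjusted p = 0.00349). Hrc lies on chromosome 7 at 45335269 to 45338973 (GRCm38.p6) and has a single probe set.

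Jph2 bridges the cell membrane and the store. Its brightest probe set read 13.24, 13.37 and 13.13 on TG tamoxifen, 14.12, 14.05 and 13.78 on TG vehicle, 14.47, 14.79 and 14.77 on NTG tamoxifen and 15.04, 14.92 and 15.13 on NTG vehicle arrays. The 4 groups did not overlap anywhere, in the order NTG vehicle, NTG tamoxifen, TG vehicle, TG tamoxifen from high to low. The step from TG vehicle to TG tamoxifen was -0.74 ± 0.17 (limma adjusted p = 0.0146), and the second probe set, 1421453_at, gave -0.94 ± 0.26 (adjusted p = 0.0294).

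Cacna1c, the channel pore, read 12.28, 12.83 and 12.48 on TG tamoxifen arrays and 13.54, 13.37 and 13.24 on TG vehicle arrays. On NTG tamoxifen arrays it read 12.78, 13.21 and 13.24 and on NTG vehicle arrays 14.01, 13.81 and 13.66. TG tamoxifen did not overlap with TG vehicle but did overlap with the array labelled NTG tamoxifen 1. The change against TG vehicle was -0.85 ± 0.20 (limma adjusted p = 0.0168), and -1.49 ± 0.38 by the second probe set, 1435730_at (adjusted p = 0.0198).

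Ryr2, the release channel, read 15.15, 15.19 and 15.30 on TG tamoxifen arrays and 16.57, 16.15 and 15.61 on TG vehicle arrays. It read 15.17, 16.26 and 16.18 on NTG tamoxifen and 16.35, 16.50 and 16.39 on NTG vehicle arrays. The array labelled NTG tamoxifen 1 lay at the TG tamoxifen level, and TG vehicle 3 was the lowest TG vehicle array. The change against TG vehicle was -0.90 ± 0.30 (limma adjusted p = 0.0574), and the second probe set, 1421126_at, gave -0.81 ± 0.27 (adjusted p = 0.0548).

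Casq2, which buffers calcium inside the store, read 15.60, 15.86 and 16.05 on TG tamoxifen arrays and 16.81, 16.39 and 16.62 on TG vehicle arrays, without overlap. The NTG tamoxifen arrays read 15.99, 17.01 and 16.81, the first of them within the TG tamoxifen range, and the NTG vehicle arrays 16.87, 16.93 and 17.08. The change against TG vehicle was -0.77 ± 0.26 (limma adjusted p = 0.0572). The single Casq2 probe set carries the platform's _s_ mark, which denotes probes shared between transcripts.

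Trdn anchors calsequestrin to the release channel. It read 14.41, 14.59 and 15.07 on TG tamoxifen arrays and 16.14, 14.98 and 15.57 on TG vehicle arrays, which overlapped. Its change was -0.87 ± 0.41 (limma adjusted p = 0.159), and its 5 other probe sets ranged from -0.72 to -1.03 with none called. A pair of these (1426144_x_at and 1451940_x_at) carry the _x_ mark of probes that can read other sequences. Asph read 12.38, 12.75 and 13.06 on TG tamoxifen arrays and 14.07, 13.22 and 13.63 on TG vehicle arrays, without overlap. Its change was -0.91 ± 0.34 (adjusted p = 0.081), while another of its probe sets, 1425275_at, fell by 1.12 (adjusted p = 0.0386). The 1425275_at call was lost in several fits that left out 1 array, such as without TG tamoxifen 1 (limma adjusted p = 0.139). The other tested Asph sets were not called. Their means on TG tamoxifen and TG vehicle arrays were 13.18 and 13.15 (1420959_at), 12.60 and 12.82 (1426015_s_at) and 10.55 and 11.12 (1450058_at). The Asph locus encodes an aspartyl hydroxylase as well as junctin and junctate, and the probe sets were not assigned to these products.

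Atp2a2, the pump, read 18.32, 18.33 and 18.41 on TG tamoxifen arrays and 18.30, 18.30 and 18.28 on TG vehicle arrays, without overlap but by a narrow margin, a change of 0.06 ± 0.14 (limma adjusted p = 0.804). The probe set stood at the 99.97th percentile of the array, where quantile normalization gives every array nearly the same values by construction. Before that normalization its deposited intensities were 255485, 269513 and 320965 on TG tamoxifen arrays and 356825, 293273 and 378344 on TG vehicle arrays, which overlapped. With the deposited scaling kept, the change was -0.28 (adjusted p = 0.293), so the sign turned and neither value was called. Its 5 other probe sets ranged from -0.74 to 0.47 with none called.

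Pln, the inhibitor of that pump, read 18.01, 18.10 and 18.19 on TG tamoxifen arrays and 18.37, 18.22 and 18.33 on TG vehicle arrays. The change was -0.20 ± 0.15 (limma adjusted p = 0.363) at the 99.92nd percentile of the array, under the same constraint as Atp2a2. Its deposited intensities were 220120, 234473 and 287038 against 374119, 280712 and 383144, and with the deposited scaling kept the change was -0.48 (adjusted p = 0.0914). The 2 other Pln probe sets gave -0.64 and -0.57 (adjusted p = 0.094 and 0.118), and on all 3 the TG tamoxifen arrays lay below the TG vehicle arrays.

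Slc8a1 encodes the exchanger. Its brightest probe set, 1437675_at, read 13.45, 13.28 and 13.79 on TG tamoxifen arrays and 13.25, 13.26 and 13.25 on TG vehicle arrays, a change of 0.26 ± 0.19 (limma adjusted p = 0.367). The probe set 1425817_a_at read 12.73, 12.72 and 13.05 against 12.01, 11.97 and 12.09, and rose by 0.81 ± 0.21 (adjusted p = 0.0235). The platform's _a_ mark denotes alternative transcripts of 1 gene, and which exchanger transcripts each probe set reads was not tested. The third tested set, 1420210_at, gave 0.46 ± 0.44 (adjusted p = 0.495).

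**Figure D2:**
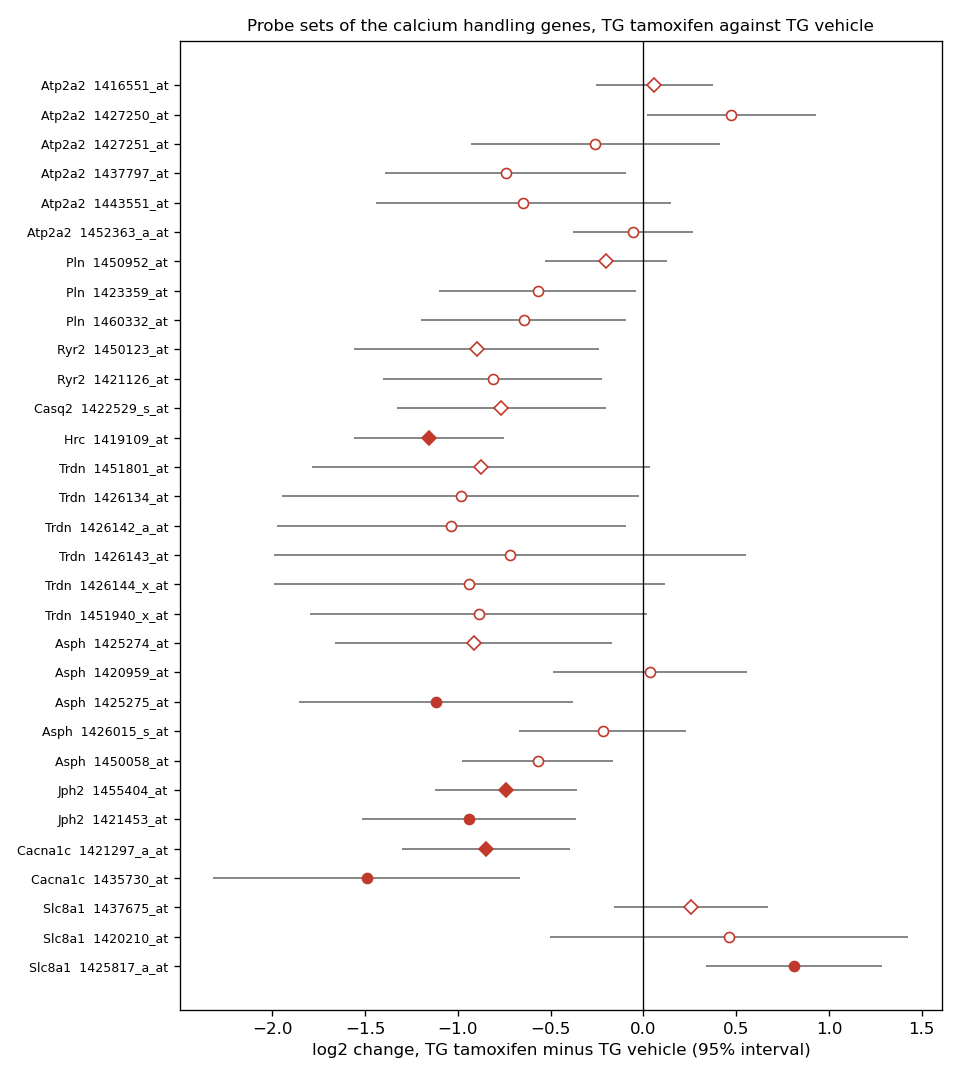
Log2 change, TG tamoxifen minus TG vehicle (horizontal axis), of the 31 tested probe sets of the 10 genes (vertical axis) with 95% intervals; diamonds are the brightest probe set of a gene and filled symbols are those called. Over the 31 probe sets 6 were lower and 1, of Slc8a1, was higher.

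By probe set, 6 of the 31 were lower and 1 higher, where 9.81% of all 22518 tested probe sets were lower and 8.54% higher (18.4% in either direction). In this comparison the count of genes depended on single arrays. Without the array labelled NTG tamoxifen 1, which enters only through the shared spread, 6 of the 10 were lower (14.5% of all genes tested): Ryr2 (adjusted p = 0.0157), Casq2 (0.0126) and Asph (0.0297) joined Hrc, Jph2 and Cacna1c. Without TG tamoxifen 1 or without TG tamoxifen 3 the count was 1, and Hrc passed in all 12 fits that left out 1 array, with adjusted p from 0.00107 to 0.0192. Casq2 also passed without NTG tamoxifen 2 (0.0437) and Ryr2 without TG vehicle 3 (0.0361). With TG vehicle 3 moved to the TG tamoxifen group 0 genes were called (4 at an unadjusted limma p under 0.05), and over the whole array 2 of 22518 probe sets were. With the beta-actin ratio as a covariate 0 were called (7 at an unadjusted p under 0.05), and over the whole array 0 of 22518 probe sets were. At an unadjusted limma p under 0.05 there were 4070 of 22518 probe sets with TG vehicle 3 moved and 4434 with the covariate.

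Tamoxifen in mice without the transgene (NTG tamoxifen against NTG vehicle) is the control for the drug. Here Trdn fell 3.24-fold and Slc8a1 rose 1.79-fold, so 1 of 10 genes was lower and 1 higher where 3.29% and 0.528% of all genes tested were (3.82% in either direction). In 5 genes every NTG tamoxifen array lay below every NTG vehicle array and in 2 above, against 17% and 13.2% of all genes tested. By probe set 4 of 31 were lower and 1 higher, against 3.2% and 0.693% of all probe sets tested (3.89% in either direction). The other 8 genes ranged from -0.75 (Cacna1c) to 0.13 (Asph). Without the array labelled NTG tamoxifen 1 limma called 0 of the 10 genes (3 at an unadjusted p under 0.05), where 2.2% of all genes tested were called. In that fit 4835 of 22518 probe sets had an unadjusted p under 0.05. With arrays centred on their medians instead, Cacna1c passed (adjusted p = 0.024) and Slc8a1 did not.

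Trdn read 13.64, 15.30 and 13.80 on NTG tamoxifen arrays and 15.75, 16.09 and 15.98 on NTG vehicle arrays. The first and the third NTG tamoxifen arrays were far below the vehicle arrays and the second a little below them, so the groups did not overlap. The change was -1.69 ± 0.41 (limma adjusted p = 0.0466), and 3 of the 6 Trdn probe sets were called, with 1426134_at at -1.91 (adjusted p = 0.0387). None of the 3 was called without the array labelled NTG tamoxifen 1: the Trdn change was -1.39 by the brightest set (adjusted p = 0.105), -1.66 by 1426134_at (0.0864) and -1.66 by 1451940_x_at (0.0618). Over the 12 fits that left out 1 array it passed in 3, those without TG vehicle 1, TG vehicle 2 or NTG tamoxifen 2, with adjusted p from 0.00891 to 0.151.

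Slc8a1 read 14.21, 13.94 and 14.06 on NTG tamoxifen arrays and 13.19, 13.03 and 13.48 on NTG vehicle arrays, without overlap, a change of 0.84 ± 0.19 (limma adjusted p = 0.0367). Without the array labelled NTG tamoxifen 1 it was 0.77 (adjusted p = 0.0698), and it passed in 4 of the 12 fits that left out 1 array, those without TG tamoxifen 3, TG vehicle 1, TG vehicle 2 or NTG tamoxifen 2. The probe set 1425817_a_at went the other way, at -0.45 ± 0.21 (adjusted p = 0.235). With all probe sets of the gene averaged, the untested 1440201_at among them, the Slc8a1 change was -0.29 (adjusted p = 0.591). Its direction thus depends on which probe set is read. Asph had 1 called probe set, 1426015_s_at, which fell by 0.95 (adjusted p = 0.0329) and was not called without the array labelled NTG tamoxifen 1 (0.0618).

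**Figure D3:**
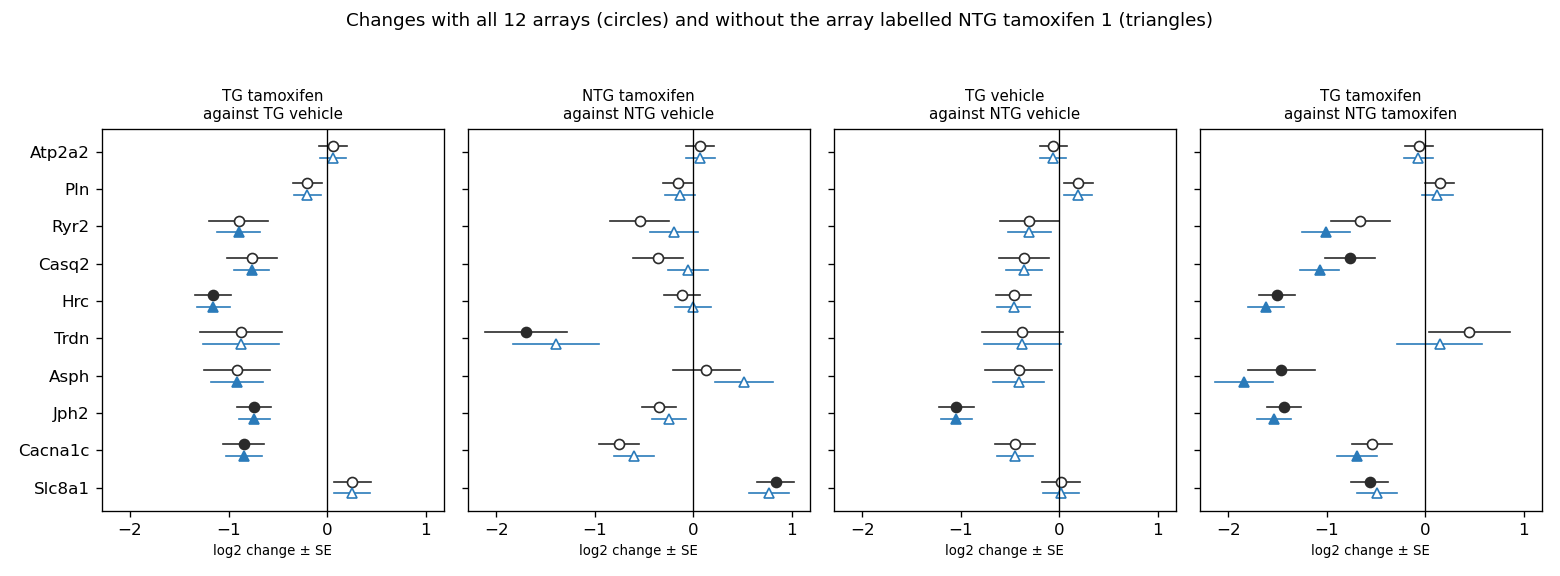
Log2 change ± SE (horizontal axis) of the 10 genes by brightest probe set in 4 comparisons, with all 12 arrays (circles) and without the array labelled NTG tamoxifen 1 (triangles); filled symbols have an adjusted p under 0.05. In TG tamoxifen against TG vehicle 3 circles and 6 triangles are filled, and in NTG tamoxifen against NTG vehicle 2 circles and 0 triangles.

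Carrying the transgene without tamoxifen (TG vehicle against NTG vehicle) went with a lower Jph2. It fell 2.06-fold, -1.04 ± 0.17 (limma adjusted p = 0.0122), so 1 of 10 genes was lower and 0 higher, where 2.6% of all genes tested were lower and 1.84% higher (4.43% in either direction). In 5 genes every TG vehicle array lay below every NTG vehicle array and in 1, Pln, above, against 15.4% of all genes tested in each direction. By probe set 1 of 31 was lower and 2 higher, against 2.92% and 3.19% of all probe sets tested (6.12% in either direction). The Jph2 call held in 11 of the 12 fits that left out 1 array and was missed without NTG vehicle 3 (adjusted p = 0.0556). It was also missed, leaving 0 genes called by limma and 1 at an unadjusted p under 0.05 each time, with the beta-actin ratio as a covariate (Jph2 adjusted p = 0.365), with TG vehicle 3 counted as TG tamoxifen, without TG vehicle 3 and TG tamoxifen 1 together, and without the filter on dim probe sets. The calls over the whole array dropped in these fits too, from 1377 of 22518 probe sets to 0 with the covariate. They were 93 with TG vehicle 3 counted as TG tamoxifen, 29 without both arrays and 89 of 45037 without the filter. At an unadjusted p under 0.05 there were 2645 with the covariate and, in the same order, 3342, 3776 and 6655. The beta-actin ratio was lower on all TG vehicle arrays (1.32 to 1.68) than on NTG vehicle arrays (2.12 to 2.43), and its part in the Jph2 change was not tested beyond that covariate.

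The second Jph2 probe set moved the opposite way. It read 12.65, 13.60 and 13.29 on TG vehicle arrays and 12.53, 12.05 and 11.84 on NTG vehicle arrays, and it rose by 1.04 ± 0.26 (limma adjusted p = 0.0406). Both sets thus passed in opposite directions in this comparison and fell together when tamoxifen was given to TG mice. The second call was kept in 5 of the 12 fits that left out 1 array, and averaging both sets gave a Jph2 change close to 0 (adjusted p = 0.998). Slc8a1 1425817_a_at was also higher, at 0.83 ± 0.21 (adjusted p = 0.0433), and kept that call in 2 of the 12, those without NTG tamoxifen 1 or NTG tamoxifen 2.

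**Figure D4:**
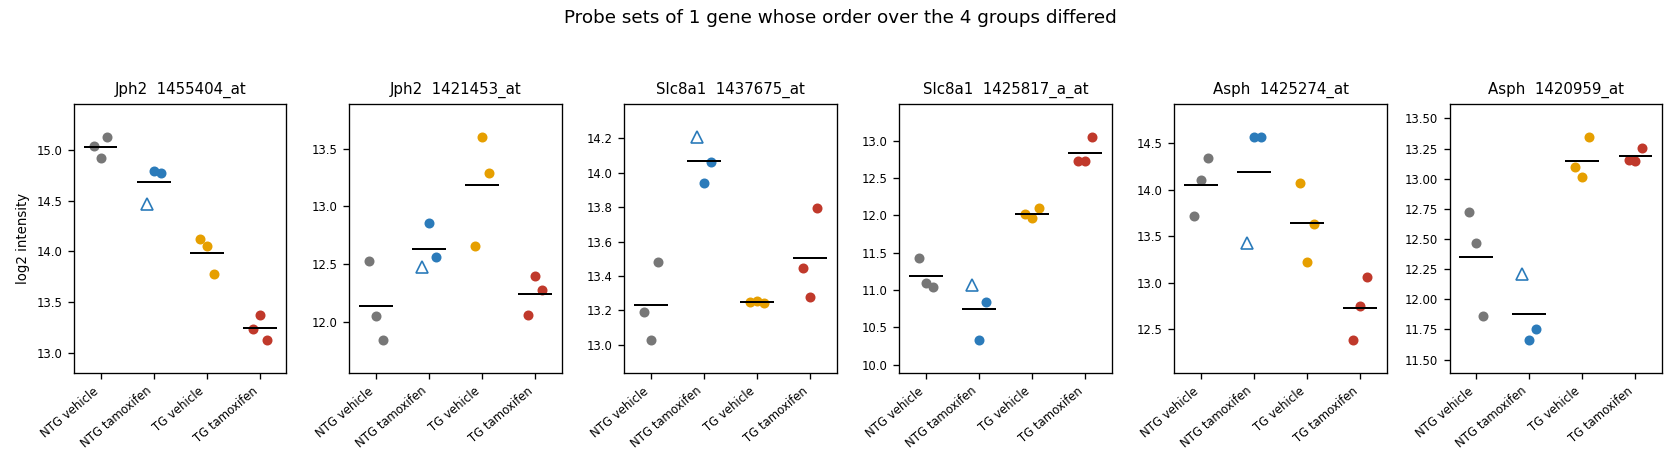
Log2 intensity (vertical axis, each with its own range) by group and array for 2 probe sets each of Jph2, Slc8a1 and Asph, the brightest and the one farthest from it in TG tamoxifen against NTG tamoxifen; bars are group means and the open triangle is the array labelled NTG tamoxifen 1. On Slc8a1 1425817_a_at the TG tamoxifen arrays, at 12.72 to 13.05, are the highest of the 12, and on 1437675_at they lie below all NTG tamoxifen arrays.

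Between the tamoxifen-treated genotypes (TG tamoxifen against NTG tamoxifen) 5 of 10 genes were lower and 0 higher, where 19.7% of all genes tested were lower and 18.2% higher (37.9% in either direction). In 4 genes every TG tamoxifen array lay below every NTG tamoxifen array and in 1, Pln, above, against 27% and 24% of all genes tested. This comparison shares its TG tamoxifen arrays with the first one, and its values are given beside those. Hrc changed by -1.50 ± 0.18 (limma adjusted p = 0.000335) against -1.16 there, and Jph2 by -1.43 ± 0.17 (adjusted p = 0.000334) against -0.74. Asph changed by -1.46 ± 0.34 (adjusted p = 0.00618) against -0.91 and Casq2 by -0.77 ± 0.26 (adjusted p = 0.0339) against -0.77. Slc8a1 changed by -0.56 ± 0.19 (adjusted p = 0.0345) against 0.26.

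Leaving out the array labelled NTG tamoxifen 1, 6 genes were lower (21% of all genes tested), with Ryr2 at -1.01 (limma adjusted p = 0.00833) and Cacna1c at -0.69 (0.0211) added and Slc8a1 at -0.49 (0.0761) lost. Hrc, Jph2 and Asph passed in all 12 fits that left out 1 array, and Casq2 in 8, missing without TG tamoxifen 1, TG tamoxifen 2, NTG tamoxifen 2 or NTG tamoxifen 3. Slc8a1 also passed in 8, missing without TG tamoxifen 1, TG tamoxifen 2, NTG tamoxifen 1 or NTG tamoxifen 3. The count was 3 without TG tamoxifen 1 and 3 without NTG tamoxifen 3. Cacna1c also passed without TG tamoxifen 2, and Trdn was higher without NTG tamoxifen 2 (adjusted p = 0.0393).

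By probe set 8 of 31 were lower and 4 higher, against 19.1% and 18.4% of all probe sets tested (37.5% in either direction), and sets of 1 gene passed in opposite directions. Slc8a1 1425817_a_at read 12.73, 12.72 and 13.05 on TG tamoxifen arrays and 11.07, 10.33 and 10.84 on NTG tamoxifen arrays, and was 4.26-fold higher (limma adjusted p = 0.000205), while the brightest Slc8a1 set was 1.48-fold lower. With all probe sets of the gene averaged, the untested 1440201_at among them, the Slc8a1 change was 1.08 (adjusted p = 0.0108). This is the opposite sign of the brightest set. Asph 1420959_at read 13.15, 13.15 and 13.25 against 12.21, 11.66 and 11.75 and was 2.48-fold higher (adjusted p = 0.00171), while Asph 1425274_at was 2.75-fold lower. With the array labelled NTG tamoxifen 1 set aside these differences were 2.25 for Slc8a1 1425817_a_at (adjusted p = 6.24e-05), 1.48 for Asph 1420959_at (0.00103) and -1.84 for Asph 1425274_at (0.00084). On 1420959_at the TG vehicle arrays, at 13.09, 13.01 and 13.35, lay around the TG tamoxifen arrays, and the NTG vehicle arrays read 12.73, 12.47 and 11.86. Asph 1426015_s_at was also higher, by 0.88 ± 0.20 (adjusted p = 0.00609). With the probe sets averaged, the untested 1436455_at among them, the Asph change between the tamoxifen-treated genotypes lost its call, at -0.04 (adjusted p = 0.929).

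Whether tamoxifen acted differently in the 2 genotypes was tested as the TG tamoxifen effect minus the NTG tamoxifen effect. Hrc differed between genotypes, with a fall of 1.16 in TG and a change of -0.12 in NTG mice, a difference of -1.04 ± 0.26 (limma adjusted p = 0.0296). It was 1 of 10 genes, lower, where 5.19% of all genes tested were lower and 6.31% higher (11.5% in either direction). By probe set 2 of 31 were lower and 1 higher, against 4.53% and 6.12% of all probe sets tested (10.6% in either direction). Without the array labelled NTG tamoxifen 1 the Hrc difference was -1.15 (adjusted p = 0.0123) and Asph passed too, at -1.43 (0.0308), where 20.1% of all genes tested were called. Over the 12 fits that left out 1 array Hrc passed in 4, those without TG tamoxifen 3, TG vehicle 1, TG vehicle 3 or NTG tamoxifen 1, with adjusted p from 0.0123 to 0.0759. For the other genes called in TG tamoxifen against TG vehicle the difference between genotypes was -0.39 ± 0.24 for Jph2 (adjusted p = 0.308) and -0.10 ± 0.29 for Cacna1c (adjusted p = 0.852).

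The wider calcium pathway was read through 74 further genes in 6 groups, of which 61 had a probe set with 1 symbol and 47 were tested. In TG tamoxifen against TG vehicle 3 were higher and 10 lower, beside the 8.76% and 12.4% of all genes tested. Their median change was -0.26, and without TG tamoxifen 3 the 13 became 8. Without the array labelled NTG tamoxifen 1, 6 were higher and 12 lower, where 14.5% of all genes tested were lower. In that fit 5102 of 22518 probe sets over the whole array were called, 2467 of them higher. With all 12 arrays Calr, the calcium-binding chaperone calreticulin, was the highest, at 2.24 ± 0.39 (limma adjusted p = 0.00449). It read 17.25, 17.21 and 17.17 on TG tamoxifen and 14.66, 15.10 and 15.13 on TG vehicle arrays. The NTG vehicle arrays read 15.87, 15.74 and 15.76, so the TG vehicle arrays lay below them. Atp2b1, the plasma membrane calcium pump, rose by 1.10 (adjusted p = 0.0122) and Atp1b1, a sodium pump subunit, by 0.52 (adjusted p = 0.0435). The mean of Atp2b1 was 13.30 on TG tamoxifen, 12.20 on TG vehicle and 13.35 on NTG vehicle arrays, so its rise did not exceed the NTG vehicle level.

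Among the 10 lower genes were Tmem38a, the store's potassium channel TRIC-A that accompanies release, at -1.78 ± 0.25 (limma adjusted p = 0.00271), and Pde4d, a phosphodiesterase bound to the release complex, at -1.38 (adjusted p = 0.0104). Cacna1s, the skeletal muscle paralogue of Cacna1c, fell by 1.71 (adjusted p = 0.0218). Orai3, a store-operated channel, fell by 1.42 (adjusted p = 0.012) and Stim1, the sensor of store filling, by 1.16 (adjusted p = 0.0064). On TG tamoxifen arrays Orai3 read 9.47, 9.66 and 8.26 and Stim1 9.10, 9.35 and 9.53, in part below that level. Fxyd1, phospholemman, the sodium pump's regulator, fell by 1.05 (adjusted p = 0.00456). Release and its regulators thus had 1 higher and 3 lower of 11 tested, uptake and its regulators 0 and 2 of 7, channels and dyad 0 and 1 of 9, extrusion and sodium 2 and 1 of 3, calmodulin and kinases 0 and 1 of 8, and mitochondrial and store-operated genes 0 and 2 of 9.

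**Figure D5:**
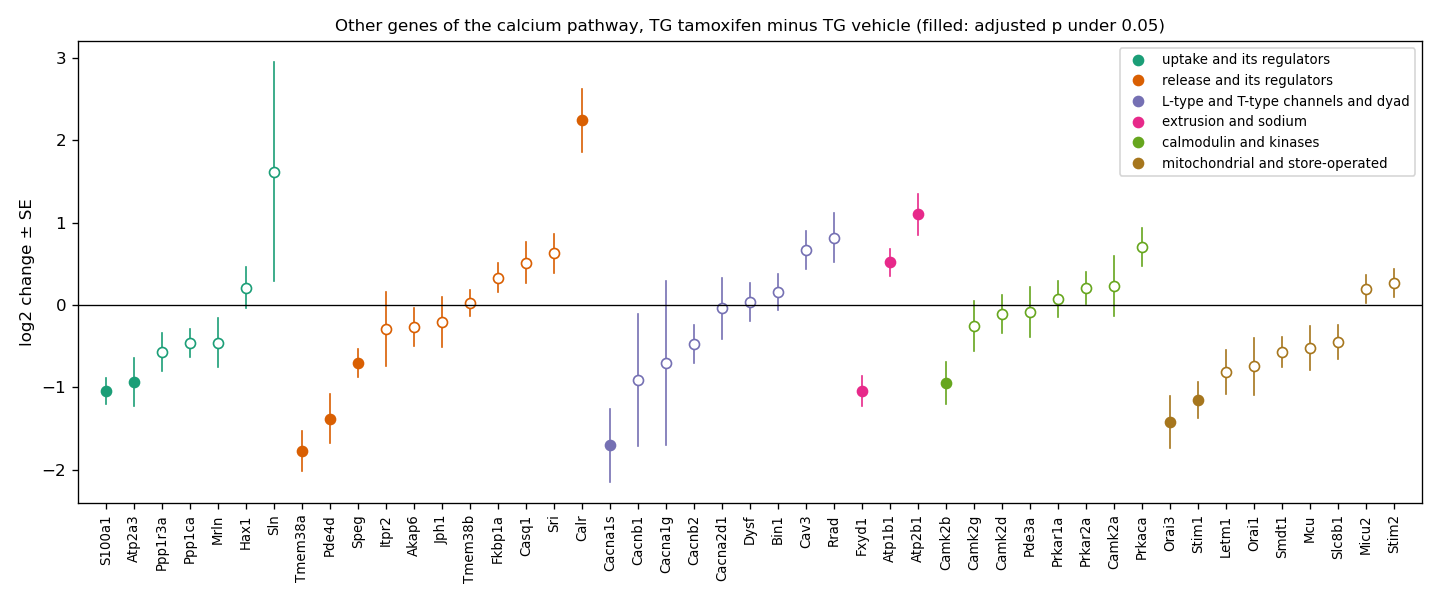
Log2 change ± SE, TG tamoxifen minus TG vehicle (vertical axis), of the 47 tested genes of the wider calcium pathway (horizontal axis), coloured by group; filled points have an adjusted p under 0.05. The filled points reach from Tmem38a at -1.78 to Calr at 2.24.

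In NTG tamoxifen against NTG vehicle 1 of the 47 was called, where 3.82% of all genes tested were: Cacna2d1, a subunit of the L-type channel, at -1.75 (limma adjusted p = 0.0319). Without the array labelled NTG tamoxifen 1 its adjusted p was 0.0658 and 1 other gene, Camk2d, a calmodulin-dependent kinase, passed in its place, at 0.91 (0.0479), where 2.2% of all genes tested were called. In TG vehicle against NTG vehicle Camk2g, another such kinase, fell by 1.56 (adjusted p = 0.0185) and Atp2b1 by 1.15 (adjusted p = 0.0253). These were 2 of 47, with 0 higher, where 2.6% of all genes tested were lower and 1.84% higher (4.43% in either direction). Without the array labelled NTG tamoxifen 1, 3 were lower, Calr among them at -0.83 (limma adjusted p = 0.0173). In that fit 2189 of 22518 probe sets over the whole array were called. Between the tamoxifen-treated genotypes 4 were higher, led by Cacna2d1 at 1.47 (adjusted p = 0.00937) and Rrad, an inhibitor of the L-type channel, at 1.04 (adjusted p = 0.0174), and 14 were lower, led by Cacna1s at -2.22 (adjusted p = 0.00278) and Orai3 at -2.08 (adjusted p = 0.000732), where 18.2% of all genes tested were higher and 19.7% lower (37.9% in either direction). The dim readings of Cacna1s and Orai3 on TG tamoxifen arrays, given above, limit both of these values. Between these genotypes, leaving out the array labelled NTG tamoxifen 1, 7 were higher and 15 lower, where 21% of all genes tested were lower. In that fit 9107 of 22518 probe sets over the whole array were called, 4515 of them higher. Calr was among the 7 higher genes, at 1.24 (limma adjusted p = 0.000571). Calr read 17.75 on the array left out and 15.98 and 15.96 on the other 2 NTG tamoxifen arrays.

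Markers of the cell types in a ventricle are given beside these changes, and their part in them was not tested. In TG tamoxifen against TG vehicle 1 of 8 ventricular heart muscle markers was called, Mybpc3 at -1.03 (limma adjusted p = 0.00362), and the other 7 lay between -0.28 and 0.05. Those 7 stood at the 99.90th to 99.998th percentile of the array, and Mybpc3 at the 99.35th. At such levels quantile normalization gives arrays nearly the same values, as for Atp2a2. This limits the changes these markers and their sum can show. The summed intensity of the 8 was 2274540 to 2338260 on TG tamoxifen and 2465350 to 2533820 on TG vehicle arrays, 2574530 to 2683530 on NTG tamoxifen and 2643540 to 2697470 on NTG vehicle arrays. Of 5 endothelial markers 3 were lower (Kdr, Tie1 and Emcn) and their sum was 23606 to 26130 against 31483 to 41618 on TG vehicle arrays. Of 5 macrophage markers 2 were higher (Ptprc and Aif1), with sums of 41853 to 53902 and 31704 to 59644 that overlapped. Of 6 fibroblast markers 1 was higher (Col3a1), and 0 of 4 atrial and 0 of 5 smooth muscle and pericyte markers were called. The 2 adipocyte and 3 skeletal muscle markers on the array all lay below the tested level.

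The genes whose pattern over the 12 arrays was nearest were sought by the root mean square difference of log2 values, each gene centred on its mean, over the 11165 genes tested. For Atp2a2 they were Myl2 (0.04), Cox6a2 (0.06) and Tpt1 (0.07). Atp2a2 itself had a standard deviation of only 0.05 over the 12 arrays, under the constraint of quantile normalization given above. A gene with nearly no variation would come about as near, so no shared pattern can be read from its list. For Pln they were Rab28 (0.08), Atp5pb (0.09) and Fam98b (0.09). Pln had a standard deviation of 0.14 over the 12 arrays under the same constraint, so little pattern can be read from its list. For Ryr2 they were Clip1 (0.09), Fam210a (0.11) and Zfp866 (0.16). Ryr2 itself ranged from 15.15 to 16.57 over the 12 arrays.

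The 2 probe sets that were not tested had mean values below the tested level. Asph 1436455_at read 5.62 to 8.60 on TG tamoxifen arrays and 5.23 to 8.86 on TG vehicle arrays, which overlapped. Slc8a1 1440201_at read 9.28 to 9.82 on TG tamoxifen arrays and 5.76 to 9.21 on TG vehicle arrays, without overlap, the same side as the called Slc8a1 set.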

How the data were processed

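The authors deposited 1 linear intensity for each probe set and array. Its mean, with 2% trimmed from both tails, was 2500.02 on all 12 arrays, so each array had been scaled to a common mean before deposit. The software for this is not given in the sources used here. The probe genes came from the platform annotation. Array medians spanned 0.35 log2 units, so intensities were quantile normalized and taken as log2 of the value plus 16, an offset that understates changes of dim genes. Probe sets whose mean lay below the median of all (log2 9.43) were left out, except by value. Groups were taken from titles. limma 3.58.1 (R 4.3.3; lmFit and eBayes) fitted 4 group means over 12 arrays, with 8 residual degrees of freedom, two-sided, with Benjamini-Hochberg adjustment over 22518 probe sets. A gene was read from its brightest probe set. Replicates are labelled as separate hearts. The number of arrays limits the precision. All 10 members were named; of the wider list, the called genes were counted and up to 6 in each direction named, and up to 2 in other comparisons. The members, lists and rules were chosen with earlier results of these data known. Alternatives covered scaling, offset, filter, probe set choice, arrays fitted, label conflicts, replicate block, beta-actin ratio and each array left out.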

Additional observations from a re-analysis of the deposited data

Results flagged for a closer look

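Tamoxifen's effect differed between TG and NTG mice, by a limma test of the difference itself, in 3 probe sets of the calcium handling genes and 5 genes of the wider list. Hrc differed by -1.04, with -1.16 in TG and -0.12 in NTG mice. Jph2 1421453_at differed by -1.43, with -0.94 and 0.49, while the brightest Jph2 set was not called. Slc8a1 1425817_a_at differed by 1.26, with 0.81 and -0.45. These 3 were of 31 tested probe sets, a share no higher than the 10.6% of all probe sets tested that were called. Over the 12 fits that left out 1 array Hrc passed in 4 (highest adjusted p 0.0759), Jph2 1421453_at in 3 (0.0817) and Slc8a1 1425817_a_at in 6 (0.0621), and the Hrc difference was also not called with median centring, with the replicate block, without the filter on dim probe sets, with TG vehicle 3 counted as TG tamoxifen, without TG vehicle 3 and TG tamoxifen 1, or with the beta-actin ratio as a covariate.

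The 5 genes of the wider list were of 47 tested, a share no higher than the 11.5% of all genes tested that were called. Among them S100a1, a calcium sensor that acts on the pump and the release channel, differed by -1.24 (-1.05 in TG and 0.20 in NTG mice). Tmem38a differed by -1.69, Pde4d by -1.52, Fxyd1 by -1.12 and Stim1 by -1.22, and in NTG mice these 4 changed by -0.09 to 0.13. S100a1 and the others are named here because the count is 5. All 8 differences remained past the threshold without the array labelled NTG tamoxifen 1, where they were -1.15 for Hrc, -1.51 for Jph2 1421453_at, 1.42 for Slc8a1 1425817_a_at, -1.24 for S100a1, -1.97 for Tmem38a, -1.89 for Pde4d, -1.27 for Fxyd1 and -1.38 for Stim1. In that fit 1 of the 47 wider genes was called higher and 6 lower, and the share of all genes tested that were called rose to 20.1%. Over the whole array 16 of 45037 probe sets were called for the difference without the filter on dim probe sets, and 0 of 22518 with the beta-actin covariate.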

How the results depend on the processing

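Counts of called calcium handling genes, of 10, by limma, were 3 for TG tamoxifen against TG vehicle, 2 for NTG tamoxifen against NTG vehicle, 1 for TG vehicle against NTG vehicle, 5 for TG tamoxifen against NTG tamoxifen and 1 for the difference of tamoxifen effects. In that order they were 5, 2, 1, 3 and 1 with the deposited scaling, where 4454, 797, 1428, 8811 and 2588 of 22518 probe sets were called over the whole array. Without the filter on dim probe sets, which brings 45037 probe sets into the adjustment, they were 1, 0, 0, 3 and 0 (6, 3, 1, 6 and 1 at an unadjusted p under 0.05). Of the 45037 probe sets 1399, 30, 89, 6166 and 16 were then called (8685, 6144, 6655, 12395 and 7845 at an unadjusted p under 0.05). Median centring gave 2 in TG tamoxifen against TG vehicle (Jph2 was lost), 3 in TG tamoxifen against NTG tamoxifen and 0 for the difference (1 at an unadjusted p under 0.05). Averaging a gene's probe sets, untested dim ones included, gave 6 (1 higher and 5 lower), 0, 0, 5 and 2 (3 and 2 at an unadjusted p under 0.05 for both counts of 0). Of 9649 genes averaged in this way 2096, 203, 168, 3508 and 1047 were called. For both counts of 0, 1939 and 1985 of these genes had an unadjusted p under 0.05. Slc8a1 then reversed, to -0.29 between the NTG groups and 1.08 between the tamoxifen-treated genotypes. Fitting only the arrays compared gave 0 in NTG mice (3 at an unadjusted p under 0.05) and 3 between the tamoxifen-treated genotypes. Over the whole array 57 and 7068 of 22518 probe sets were called in these 2 fits (4740 and 10029 at an unadjusted p under 0.05). With TG vehicle 3 counted as TG tamoxifen, all but TG tamoxifen against NTG tamoxifen were 0 (4, 3, 1 and 1 at an unadjusted p under 0.05), and without TG vehicle 3 (treatment label) and TG tamoxifen 1 (age label), which keeps the array labelled NTG tamoxifen 1, they were 1, 0, 0, 3 and 0 (4, 3, 1, 4 and 1). With the beta-actin ratio as a covariate all but TG tamoxifen against NTG tamoxifen were 0 (7, 2, 1 and 2 at an unadjusted p under 0.05). Over the whole array 0 of 22518 probe sets were called in each of those comparisons with this covariate (4434, 1882, 2645 and 1519 at an unadjusted p under 0.05). In the same comparisons, counting TG vehicle 3 as TG tamoxifen, there were 2, 145, 93 and 1 calls of 22518 (4070, 4271, 3342 and 3950 at an unadjusted p under 0.05). Without TG vehicle 3 and TG tamoxifen 1 all 5 comparisons gave 747, 11, 29, 6275 and 11 calls (5516, 4819, 3776, 9201 and 5243). The cause of these shifts was not tested. Leaving out 1 array gave 1 to 6, 0 to 2, 0 to 1, 3 to 6 and 0 to 2. The 13 wider calcium genes became 5 without the filter, 0 with TG vehicle 3 counted as tamoxifen (15 at an unadjusted p under 0.05), 5 without TG vehicle 3 and TG tamoxifen 1, 0 with the beta-actin covariate (17) and 8 to 18 with 1 array left out.

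Replicate numbers are not stated to pair mice, and same-numbered arrays did not deviate together (correlations of deviations from -0.10 to 0.12 over 18 pairs, 1 of them over 0.1). A fit with the replicate number as a block called 3 genes in TG tamoxifen against TG vehicle, 0 between the NTG groups and 0 for the difference (3 at an unadjusted p under 0.05 in both of these), and 11 wider genes. It called 3674, 202 and 1849 of 22518 probe sets in these comparisons, and in the last 2 of them 4958 and 6541 had an unadjusted p under 0.05. Median centring shifted the median over all probe sets to -0.12 between the NTG groups, from 0.02, and to 0.17 for the difference, from -0.06. It also moved the higher calls over all probe sets from 1924 of 4133 to 2559 of 4215 in TG tamoxifen against TG vehicle, from 156 of 876 to 98 of 1511 between the NTG groups, from 719 of 1377 to 447 of 1652 between the vehicle groups and from 1378 of 2397 to 2400 of 2868 for the difference.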
